A study of Mus musculus with 2 samples.

Results

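This account covers 40 genes of DNA replication and S phase, taken as a named list from the 16665 genes counted in either of 2 single-cell RNA-seq libraries of mouse ileal enteroids. All 40 were listed in both libraries, and each had at least 200 unique molecular identifiers (UMIs, which count single captured transcripts) over the 2 libraries together. The enteroids, which are crypt cells grown as closed epithelial units in Matrigel, were derived from the ileum of mice aged 4 months (strain C57Bl6/129sv). In the Taf4IEC library, labelled KO and 4OHT, both *Taf4* alleles carried lox sites and the Cre-ERT2 fusion was driven by the villin promoter, which is active throughout the intestinal epithelium, so that 1 µM 4-hydroxytamoxifen (4-OHT) given for 3 days was to inactivate *Taf4* in every epithelial cell type. The control library came from enteroids without this Cre. Its label names WT enteroids and ethanol, whereas the methods of the study describe *Taf4* lox/lox enteroids that also received 4-OHT, so a difference in genotype and a difference in the drug cannot be told apart here. Live cells were sorted and captured at the end of the treatment.

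There was 1 library per group, so no test between the groups was possible. The 95% intervals given below cover counting error only and not the variation between cells or cultures. Levels are UMIs per 10000 UMIs of all genes in the same cells, and a log2 ratio is the level in the Taf4IEC library over that in the control library.

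DNA replication starts when the Mcm2 to Mcm7 proteins are loaded on origins as an inactive ring, with the help of Cdc6, in late mitosis and G1. Cdc45 and the GINS complex then turn the ring into the moving helicase, polymerases copy the strands, and a clamp, a clamp loader and nucleases complete the lagging strand. Many of these genes are targets of E2F factors, whose activity rises at the entry into S phase. In the intestine the dividing cells are the stem and progenitor cells of the crypt, whereas enterocytes, goblet, Paneth, enteroendocrine and tuft cells have mostly left the cell cycle.

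RefSeq promoter windows on GRCm38.p6, the build of the mm10 alignments, were matched by symbol for 30 of the 40 genes. They were searched on both strands, over 250 bases before and 50 bases after the annotated start, for the E2F letters TTTCCCGC, TTTCGCGC, TTTGCCGC and TTTGGCGC, which can overlap each other on opposite strands. At least 1 match lay in 13 of the 30 (43.3%), against 2.60% of the 27025 genes with such a window. The CCAAT letters were found in 22 of the 30 (73.3%), against 41.1% of all, and the TATAAA letters in 4 (13.3%), against 15.7%. The 27025 genes were not limited to those counted in these libraries. Of 46 replication genes outside the list that had a window, 14 (30.4%) held the E2F, 23 (50%) the CCAAT and 1 (2.17%) the TATAAA letters. The windows below, cut to 280 bases, belong to the genes with the lowest and the highest log2 ratios of the list over all cells (*Clspn*, then *Brip1* and *Ubr7*) and to *Mcm6*, which had the lowest ratio of the Mcm genes. Capitals mark the E2F letters.
Clspn, chr4:126556730-126557009, plus strand: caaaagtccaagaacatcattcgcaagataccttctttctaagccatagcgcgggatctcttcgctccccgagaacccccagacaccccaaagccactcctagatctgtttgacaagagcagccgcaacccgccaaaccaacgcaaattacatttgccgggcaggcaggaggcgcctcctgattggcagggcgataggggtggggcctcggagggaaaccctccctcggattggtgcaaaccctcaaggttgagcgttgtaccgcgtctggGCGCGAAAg
Mcm6, chr1:128359676-128359955, minus strand: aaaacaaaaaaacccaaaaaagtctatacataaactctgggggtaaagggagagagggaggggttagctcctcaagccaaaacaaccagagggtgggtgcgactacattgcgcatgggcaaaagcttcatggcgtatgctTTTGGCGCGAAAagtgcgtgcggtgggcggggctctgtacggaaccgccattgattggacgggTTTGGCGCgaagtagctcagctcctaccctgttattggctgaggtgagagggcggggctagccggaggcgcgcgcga
Brip1, chr11:86201164-86201443, minus strand: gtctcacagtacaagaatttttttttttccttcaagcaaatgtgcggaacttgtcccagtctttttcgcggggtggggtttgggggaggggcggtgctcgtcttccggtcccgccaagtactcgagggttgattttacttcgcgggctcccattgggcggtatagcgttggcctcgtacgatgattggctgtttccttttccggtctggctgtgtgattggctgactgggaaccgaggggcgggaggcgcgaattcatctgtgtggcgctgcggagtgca
Ubr7, chr12:102757725-102758004, plus strand: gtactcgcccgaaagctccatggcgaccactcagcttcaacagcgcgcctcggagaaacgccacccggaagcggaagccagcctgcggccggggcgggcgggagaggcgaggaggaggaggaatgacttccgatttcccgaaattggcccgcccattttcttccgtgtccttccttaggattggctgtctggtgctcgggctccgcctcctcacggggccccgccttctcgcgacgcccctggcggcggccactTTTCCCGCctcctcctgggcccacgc
The letters stand in the window of *Clspn* and in that of *Ubr7*, the extremes of the list. The 13 genes with the letters had log2 ratios from -1.87 to -0.19 with a median of -1.22, and the 17 without had ratios from -1.63 to -0.44 with a median of -1.06.

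The control library held 39947009 UMIs in 2563 cells and the Taf4IEC library 24990128 UMIs in 1811 cells, with 2 barcodes in common. Cells with under 2000 UMIs made up 17.3% of the control and 49.1% of the Taf4IEC library. *Taf4* itself was counted 278 times in the control and 236 times in the Taf4IEC library (log2 ratio of the levels 0.44, interval 0.18 to 0.70). The reads come from the 3' end of transcripts and may lie outside the deleted part, so this count does not check the label, and the name Taf4IEC follows the label alone. Of 8 markers of immune, endothelial and mesenchymal cells, 5 were at 0 in each library, *Ptprc*, *Dcn* and *Acta2* among them, and the 8 summed to 0.0255 and 0.0212 UMIs per 10000. The 14 stem markers summed to 16.7 and 10.8 per 10000, the 12 enterocyte markers to 28.2 and 64.1, and the 16 Paneth and goblet markers to 63.9 and 212 per 10000 in the control and the Taf4IEC library.

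Over all cells, each of the 40 replication genes was at a lower level in the Taf4IEC library. The 40 genes together had 61565 UMIs in the control library, or 15.4 per 10000 (15.3 to 15.5), and 18706 UMIs in the Taf4IEC library, or 7.49 per 10000 (7.38 to 7.59), a log2 ratio of -1.04 (-1.07 to -1.02). The median over the 40 genes was -1.11, and the ratios ran from -1.87 (*Clspn*) to -0.19 (*Ubr7*). In all, 28 of the 40 were at least 2-fold lower, against 3.48% of the 10002 genes with at least 200 UMIs, and 40 of 40 were below 0, against 34.7% of those genes. The median over all these genes was 0.16, so relative to it the members stood lower still, with a median difference of -1.27. The difference depended on how cells were weighed. With every cell given the same weight, shallow cells included, the summed log2 ratio was -0.36 and only 3 members were 2-fold lower.

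**Figure D1:**
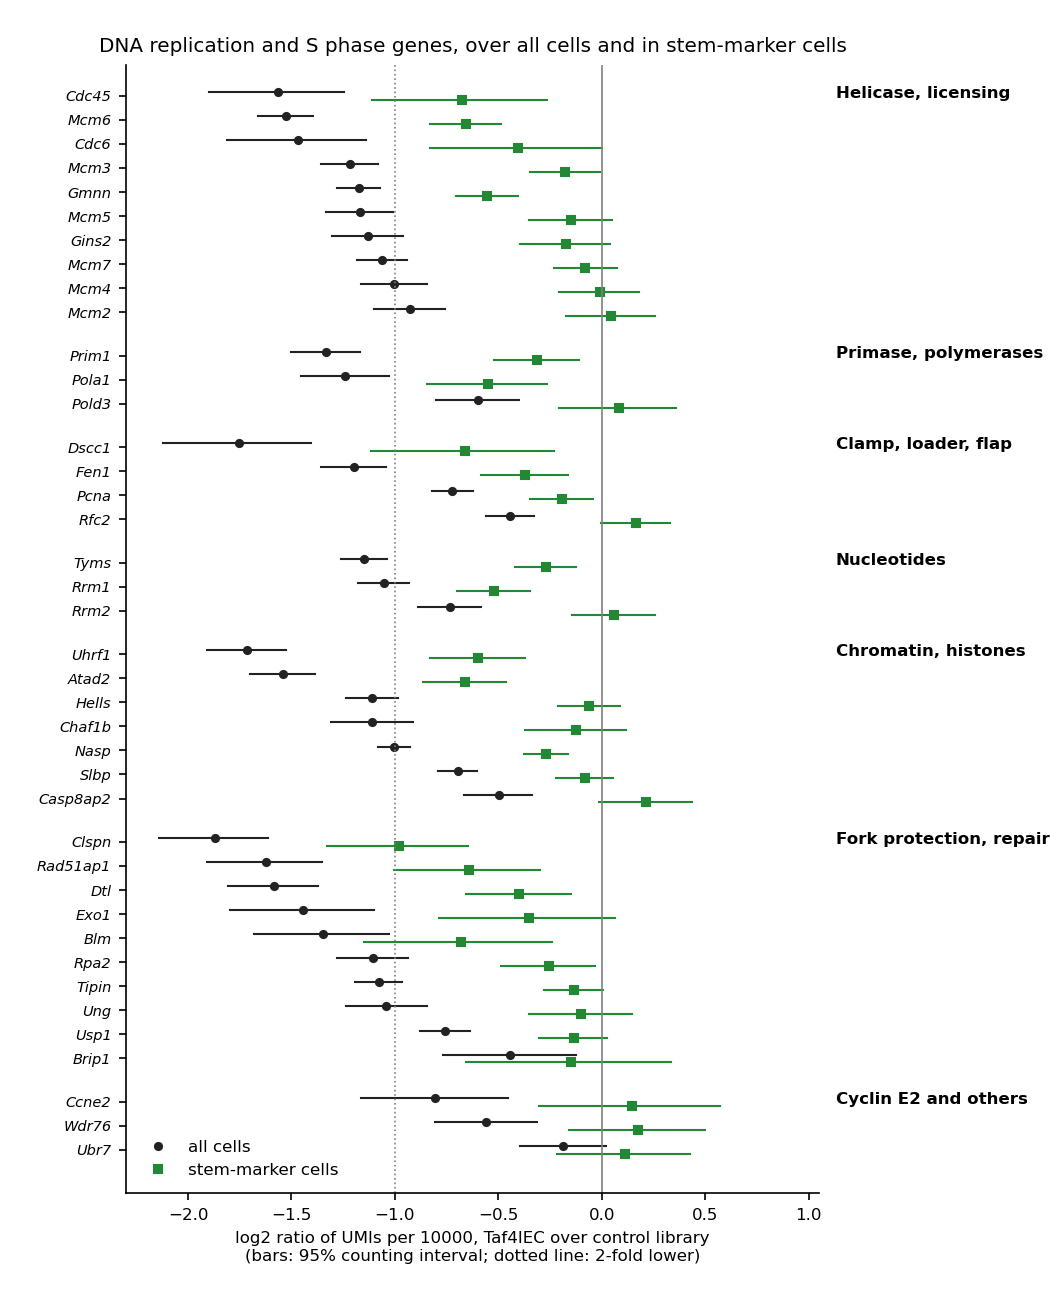
Log2 ratio of the level in the Taf4IEC library over the control library for each of the 40 genes (x axis), grouped by role, over all cells (black circles) and in stem-marker cells (green squares), with 95% counting intervals as bars. Over all cells the points run from -1.87 to -0.19, whereas in stem-marker cells they run from -0.98 to 0.21.

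Among the genes of origin licensing and the helicase, 9 of 10 were at least 2-fold lower. *Mcm6* was at 0.657 UMIs per 10000 in the control library and at 0.228 in the Taf4IEC library, the widest gap of the 6 Mcm genes (log2 ratio -1.53, -1.66 to -1.40). *Mcm3* was at 0.497 and 0.214 per 10000 (-1.22, -1.36 to -1.08), and *Mcm5* at 0.361 and 0.161 (-1.17, -1.33 to -1.01). *Mcm7* was at 0.594 and 0.285 (-1.06, -1.18 to -0.94), and *Mcm4* at 0.339 and 0.169 (-1.0, -1.17 to -0.85). *Mcm2* was at 0.279 and 0.146 (-0.93, -1.10 to -0.76), the highest ratio of the group. The 6 proteins form a ring in equal numbers, but the ratio of *Mcm6* lay below the intervals of the other 5 Mcm transcripts. *Cdc45*, which joins the ring at firing, had the lowest ratio of the group, with 0.115 per 10000 in the control and 0.0388 in the Taf4IEC library (-1.57, -1.90 to -1.25). *Gins2*, a subunit of the GINS complex, was at 0.315 and 0.144, *Cdc6*, the loading factor, at 0.102 and 0.0368, and *Gmnn*, whose product geminin blocks a further round of loading, at 0.880 and 0.390 per 10000.

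The genes of strand synthesis differed more among themselves. *Prim1*, the catalytic subunit of primase, was at 0.375 UMIs per 10000 in the control and 0.149 in the Taf4IEC library (-1.33, -1.50 to -1.17). *Pola1*, the catalytic subunit of polymerase alpha, was at 0.221 and 0.0936 per 10000, and *Pold3*, an accessory subunit of polymerase delta, at 0.179 and 0.118 (-0.60, -0.80 to -0.40). The interval of *Pold3* does not meet those of *Prim1* and *Pola1*, although all 3 proteins act at the lagging strand. Among the clamp genes, *Dscc1*, a subunit of the alternative clamp loader that serves sister chromatid cohesion, had 0.105 and 0.0312 per 10000 (-1.76, -2.12 to -1.40). *Fen1*, the flap nuclease that trims Okazaki fragments, was at 0.396 and 0.172, *Pcna*, the sliding clamp itself, at 0.726 and 0.440, and *Rfc2*, a subunit of the main clamp loader, at 0.476 and 0.349 per 10000 (-0.45, -0.56 to -0.33).

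Of the genes of nucleotide supply, *Tyms*, the enzyme that makes thymidylate, was at 0.753 UMIs per 10000 in the control and 0.339 in the Taf4IEC library (-1.15, -1.26 to -1.04). The subunits of ribonucleotide reductase did not share a ratio. The large subunit *Rrm1* was at 0.594 and 0.286 per 10000, a log2 ratio of -1.06 (-1.18 to -0.93), and the small subunit *Rrm2*, which is made mainly in S phase, at 0.323 and 0.194 (-0.74, -0.89 to -0.59).

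Among the genes of chromatin duplication and histone supply, 5 of 7 were at least 2-fold lower. *Uhrf1*, which reads hemimethylated DNA and brings in the maintenance methyltransferase, was at 0.356 UMIs per 10000 in the control and 0.108 in the Taf4IEC library (-1.71, -1.91 to -1.53). *Atad2*, a bromodomain ATPase, was at 0.484 and 0.166, the remodeller *Hells* at 0.580 and 0.268, *Chaf1b* of the chromatin assembly factor at 0.238 and 0.110, and the histone chaperone *Nasp* at 1.42 and 0.709 per 10000. The remaining 2 members handle the messenger RNA of the replication histones. *Slbp*, which binds its stem-loop, was at 0.821 and 0.507, and *Casp8ap2*, which takes part in its processing, at 0.249 and 0.176 per 10000 (-0.50, -0.66 to -0.34).

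Of the genes of fork protection and repair, 8 of 10 were at least 2-fold lower. *Clspn* encodes claspin, the adaptor that passes the checkpoint signal from stalled forks to Chk1, and had the lowest ratio of the list, with 0.207 UMIs per 10000 in the control and 0.0564 in the Taf4IEC library (-1.87, -2.14 to -1.61). *Rad51ap1*, a partner of the recombinase, was at 0.162 and 0.0524, *Dtl*, which directs the degradation of licensing factors in S phase, at 0.256 and 0.0852, and the exonuclease gene *Exo1* at 0.0936 and 0.0344 per 10000. The helicase gene *Blm* was at 0.101 and 0.0396, *Rpa2* of the single-strand binding complex at 0.312 and 0.145, and the fork protection gene *Tipin* at 0.694 and 0.329. *Ung*, which removes uracil from DNA, was at 0.231 and 0.112, and *Usp1*, a deubiquitinase of the clamp, at 0.534 and 0.316. *Brip1*, another repair helicase, was at 0.0658 and 0.0484 per 10000 (-0.44, -0.77 to -0.13), the highest ratio of the group.

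None of the last 3 genes was 2-fold lower, and their median log2 ratio was -0.56. *Ccne2*, which encodes cyclin E2 of the G1 to S transition, was at 0.0636 UMIs per 10000 in the control and 0.0364 in the Taf4IEC library (-0.80, -1.17 to -0.45). *Wdr76* was at 0.117 and 0.0792. *Ubr7* was at 0.138 and 0.122 (-0.19, -0.39 to 0.02), and its interval alone among the 40 held 0.

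Over all cells, the lower levels extended to replication genes outside the list. Of 56 further replication genes, 54 had at least 200 UMIs over both libraries, and 22 of these were at least 2-fold lower in the Taf4IEC library, 49 lower and 5 higher, with a median log2 ratio of -0.83. Over all 10002 genes with as many UMIs, 3.48% were at least 2-fold lower and 34.7% lower, with a median of 0.16. The lowest were *Tk1*, thymidine kinase, with 0.456 and 0.0856 UMIs per 10000 (-2.41, -2.62 to -2.21), *Timeless*, the partner of *Tipin*, with 0.0949 and 0.0232 (-2.03, -2.46 to -1.63), and *Ticrr*, needed for origin firing, with 0.0578 and 0.0168 (-1.78, -2.29 to -1.30). The highest were *Orc2* of the origin recognition complex, with 0.103 and 0.117 (0.18, -0.04 to 0.40), *Pold4* of polymerase delta, with 0.694 and 0.972 (0.49, 0.41 to 0.57), and *Rrm2b*, the p53-inducible small subunit of ribonucleotide reductase, with 0.0638 and 0.109 (0.78, 0.52 to 1.03). Over all cells the small subunits *Rrm2* and *Rrm2b* thus had ratios of opposite sign.

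Over all cells, fewer cells with these transcripts and fewer transcripts per cell cannot be told apart, so the cells were divided by marker genes. A cell with at least 2000 UMIs was put in the class whose markers stood highest over their mean level, if at least 3 of them were detected and together reached that mean. None of the 40 genes is a marker. Stem-marker cells numbered 1033 (40.3% of all cells) in the control and 230 (12.7%) in the Taf4IEC library, and enterocyte-marker cells 195 and 171. Of the cells with at least 2000 UMIs, which alone could be classed, stem-marker cells were 48.7% and 25.0%. The Paneth/goblet-marker class held 191 and 142 cells, the enteroendocrine-marker class 124 and 114, and 569 and 256 cells had no class. The tuft class held 7 and 8 cells and was not compared. The classes are ranges of a score, and 419 and 73 of the stem-marker cells lay within 1.5 times of the cut, with 241 and 83 cells of no class as near on its other side. In the stem-marker cells of the control and the Taf4IEC library, the stem markers had a median of 22.7 and 24.5 per 10000, the enterocyte markers 4.62 and 5.20 and the Paneth and goblet markers 3.62 and 6.13. *Olfm4* was among the 10 leading genes of this class in both libraries, and those of the Taf4IEC library also held *Dtl* and *Hells*, which are members of the list, with *Pole*, *Reg1* and *Krt15*.

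**Figure D2:**
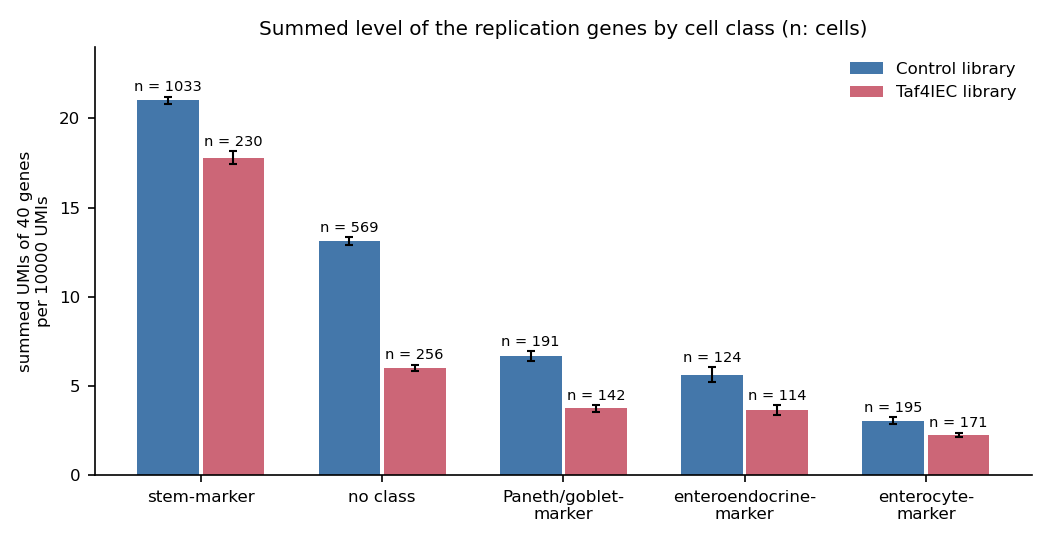
Summed UMIs of the 40 genes per 10000 UMIs (y axis) in 4 marker classes and in cells of no class, with the tuft class left out for its few cells, for the control (blue) and the Taf4IEC library (red), with 95% counting intervals and the number of cells above each bar. The order of the 5 groups shown is the same in both libraries, and the widest gap among them, 13.1 against 6.01, is in cells of no class.

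In both libraries the replication genes stood highest in stem-marker cells and lowest in enterocyte-marker cells. Their sum was 21.0 UMIs per 10000 in stem-marker and 3.05 in enterocyte-marker cells of the control, a log2 ratio between the classes of 2.78 (2.70 to 2.87), and 17.8 and 2.24 in the Taf4IEC library, a ratio of 2.99 (2.91 to 3.07). Among members with at least 200 UMIs over both classes, 37 of 38 in the control and 22 of 23 in the Taf4IEC library were more than 2-fold higher in stem-marker cells, against 28.6% and 24.1% of all such genes. The 6 Mcm genes together had 3.90 per 10000 in stem-marker and 0.245 in enterocyte-marker cells of the control, and 3.39 and 0.103 in those of the Taf4IEC library. *Gmnn* differed least, with 1.10 against 0.626 per 10000 in the control and 0.749 against 0.426 in the Taf4IEC library, log2 ratios of 0.81 and 0.82. *Pcna* came next in the control, with 0.889 against 0.414. *Rad51ap1* and *Clspn* had no UMI at all in the 171 enterocyte-marker cells of the Taf4IEC library, which allows up to 0.00507 per 10000 (3 UMIs).

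The share of cells with a UMI showed the same pattern. *Mcm7* was detected in 61.2% of the stem-marker cells of the control (58.1% to 64.2%) and in 57.4% of those of the Taf4IEC library (50.7% to 63.9%). Its share in enterocyte-marker cells, where free RNA can supply a UMI, was 3.08% and 3.51%, at a median depth of 21822 and 40471 UMIs against 19946 and 29490 in stem-marker cells. At a common depth of 2000 UMIs the expected shares of *Mcm7* were 13.3% and 14.3% in stem-marker and 0.408% and 0.151% in enterocyte-marker cells. *Gmnn*, by contrast, was detected in 72.7% and 60.9% of stem-marker and in 64.1% and 63.7% of enterocyte-marker cells, and in 18.2%, 13.6%, 11.3% and 7.67% of them at the common depth. *Pcna* was detected in 44.6% and 51.5% of enterocyte-marker cells, and in 7.38% and 5.99% of them at the common depth. Of the Mcm genes, *Mcm6* had the largest unthinned share in enterocyte-marker cells, 15.9% and 14.0%. At the common depth its shares were 1.76% and 0.810%. The part of free RNA in these shares was not tested.

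Within stem-marker cells the gap between the libraries was narrower. The sum of the 40 genes had a log2 ratio of -0.24 (-0.27 to -0.21), and the median over them was -0.18. With every cell given the same weight they were -0.081 and -0.07. No member was 2-fold lower (0 of 40, against 1.88% of 7756 genes), and 32 were below 0, against 26.7% of those genes. The median of all genes in this class was 0.22, and all 40 members lay below it, with a summed ratio of -0.46 relative to it. *Clspn* was again the lowest, with 0.290 and 0.147 UMIs per 10000 (-0.98, -1.33 to -0.65). *Mcm6* was the Mcm gene that stood apart, at 0.936 and 0.594 per 10000 (-0.66, -0.83 to -0.49). *Mcm2*, at 0.400 and 0.413 (0.04, -0.17 to 0.26), *Mcm4*, at 0.505 and 0.501 (-0.01, -0.21 to 0.18), and *Mcm7*, at 0.825 and 0.781 (-0.08, -0.23 to 0.07), had intervals that held 0. *Rrm1* was at 0.811 and 0.565 (-0.52, -0.70 to -0.35), whereas its partner *Rrm2* was at 0.443 and 0.461 (0.06, -0.15 to 0.26). *Rrm2b*, which is outside the list, was at 0.0587 and 0.0974 (0.73, 0.24 to 1.20), so the 2 small subunits were not of opposite sign in this class. *Casp8ap2* had the highest ratio, with 0.336 and 0.390 (0.21, -0.01 to 0.43). Of the 56 replication genes outside the list, 50 had at least 200 UMIs in this class. Among these 50, 2 were at least 2-fold lower, 35 were lower and 15 higher, with a median of -0.18. The shares of all genes given above, 1.88% and 26.7%, apply to them too.

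In cells of no class the gap was as wide as over all cells. The sum was 13.1 UMIs per 10000 in the control and 6.01 in the Taf4IEC library (-1.13, -1.18 to -1.07), and 28 of 40 members were at least 2-fold lower. Of the 30 members with at least 200 UMIs in these cells it was 22, against 3.82% of 6316 genes. *Uhrf1* was lowest, with 0.296 and 0.0564 per 10000 (-2.40, -2.92 to -1.91), and *Ubr7* highest, with 0.108 and 0.0954 (-0.18, -0.65 to 0.27). These cells also had fewer stem markers, with medians of 8.20 and 6.61 per 10000. In the marker classes of differentiated cells the sums were 6.67 and 3.73 (Paneth/goblet, -0.84), 5.61 and 3.63 (enteroendocrine, -0.63) and 3.05 and 2.24 per 10000 (enterocyte, -0.45, -0.56 to -0.33). In cells with under 2000 UMIs the sums were 13.0 and 13.3 per 10000 (0.03, -0.11 to 0.18), so no gap beyond counting error was seen there.

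The class levels and the class sizes can be recombined by arithmetic. If the control levels of each class are kept and weighed with the share of UMIs that each class has in the Taf4IEC library, the 40 genes sum to 11.0 per 10000, between the 15.4 of the control and the 7.49 of the Taf4IEC library. With the levels of the Taf4IEC library and the shares of the control, they sum to 11.5.

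**Figure D3:**
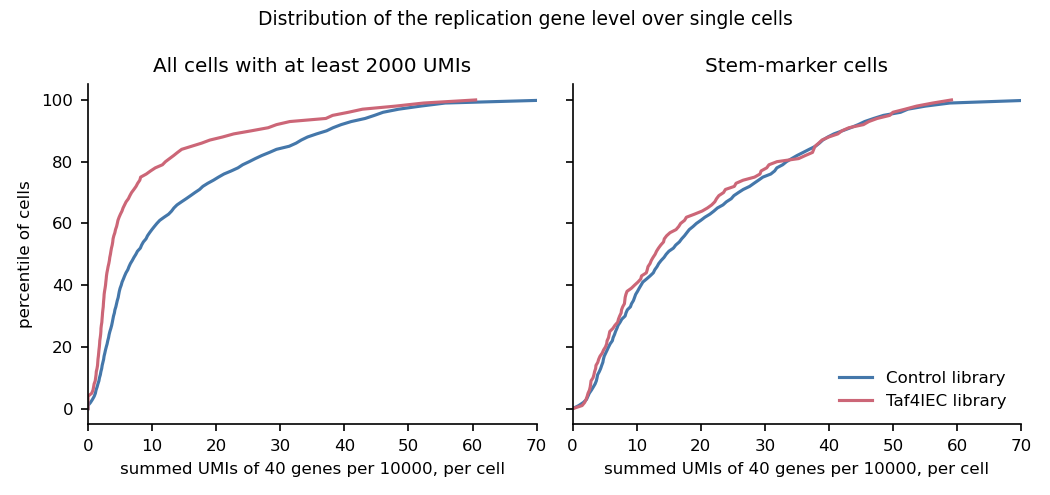
Percentile of cells (y axis) against the summed UMIs of the 40 genes per 10000 in a single cell (x axis), for all cells with at least 2000 UMIs (left) and for stem-marker cells (right), with the control in blue and the Taf4IEC library in red. On the left the medians are 7.47 and 3.50, and on the right they are 14.6 and 12.9.

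The distribution over single cells had a long upper end in both libraries. Among cells with at least 2000 UMIs, the median summed level was 7.47 UMIs per 10000 in the control and 3.50 in the Taf4IEC library, and the 75th percentile was 20.4 and 8.22. The 95th percentile was 44.7 and 38.2. In stem-marker cells the medians were 14.6 and 12.9 and the 95th percentiles 48.5 and 49.5.

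So that no gene was read in cells chosen by that gene, the list was divided by position into 20 odd and 20 even members. A cell with at least 2000 UMIs was called replication-high when its odd members reached 2 times their mean level over both libraries, and the even members were then read in it. There were 484 replication-high cells among 2119 (22.8%, 21.1% to 24.7%) in the control and 101 among 921 (11.0%, 9.02% to 13.2%) in the Taf4IEC library, a difference of -11.9 percentage points (-14.6 to -9.05). In these cells the even members stood at 21.7 UMIs per 10000 in the control and 23.0 in the Taf4IEC library, a log2 ratio of 0.09 (0.04 to 0.13). In the remaining cells they stood at 5.15 and 2.94 (-0.81, -0.85 to -0.77). With the even members selecting and the odd members read, 22.7% and 11.1% of cells were replication-high, and the odd members stood at 14.4 and 15.4 in them and at 2.58 and 1.43 in the rest. A common cut in part fixes the level of the cells that pass it, so a lower number of replicating cells and a lower level in each of them cannot be told apart from these values. The difference in shares was -6.07 points with a cut of 3 times the mean and -15.3 points in cells with at least 5000 UMIs.

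**Figure D4:**
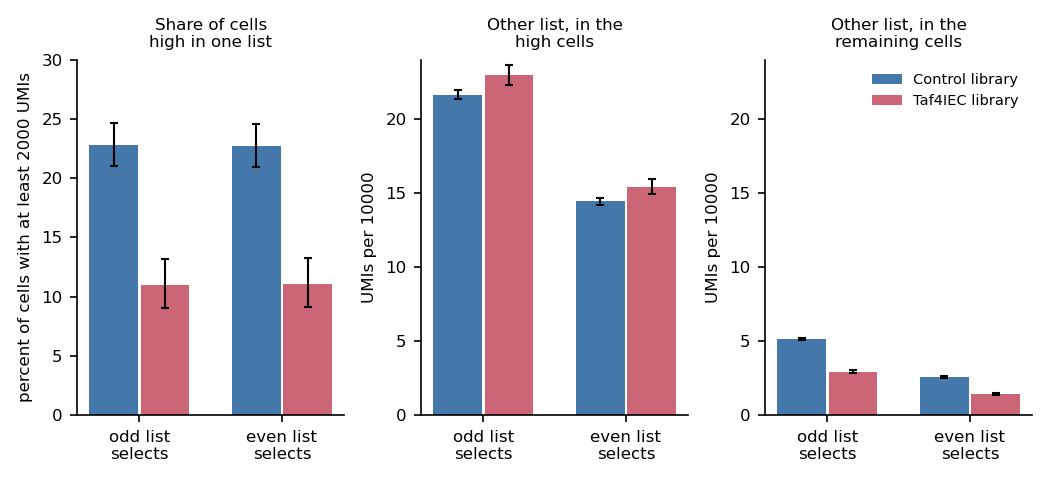
Share of cells with at least 2000 UMIs that were replication-high by the odd or the even list positions (left), and the level of the other list positions in those cells (middle) and in the remaining cells (right), for the control (blue) and the Taf4IEC library (red), with 95% counting intervals. The share is 22.8% against 11.0% with odd positions, while the level in the high cells is 21.7 against 23.0 UMIs per 10000.

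Replication-high cells were found mainly in the stem-marker class. By the odd members they were 365 of 1033 stem-marker cells in the control (35.3%) and 68 of 230 in the Taf4IEC library (29.6%), a difference of -5.77 points (-12.3 to 1.22) whose interval holds 0. By the even members they were 35.0% and 32.2%, a difference of -2.87 points (-9.57 to 4.21). In cells of no class they were 106 of 569 (18.6%) and 25 of 256 (9.77%), a difference of -8.86 points (-13.7 to -3.54). In the Paneth/goblet-marker class they were 11 of 191 and 7 of 142. None of the 195 and 171 enterocyte-marker cells was replication-high, which allows shares of up to 1.87% and 2.13%. The median depth of the replication-high cells was 22968 UMIs in the control and 14693 in the Taf4IEC library, against 17290 and 29634 in the other cells. With the even members selecting it was 23303 and 25698, against 17169 and 29413. At a common depth of 2000 UMIs the expected shares were 25.0% and 13.9%.

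Each gene was then read only in the replication-high cells that the other list positions had chosen. Of the 40, 24 were higher and 16 lower in the Taf4IEC library. With the odd members selecting throughout, and so read in cells they had chosen, 28 of 40 were higher, near the 73.6% of all genes with at least 200 UMIs in such cells. With each gene read in cells that the other list positions had chosen, the median over members was 0.09. Of these members, 15 lay above and 25 below 0.20, the median of all genes in the cells chosen by the odd members. *Clspn* was the lowest member here too, at 0.609 UMIs per 10000 in the control and 0.392 in the Taf4IEC library (-0.64, -0.98 to -0.31), and the only one whose interval lay below 0. *Brip1* was the highest, at 0.157 and 0.251 (0.67, 0.19 to 1.14). *Mcm2* was at 0.623 and 0.856 (0.46, 0.22 to 0.69), *Rfc2* at 1.01 and 1.37 (0.44, 0.24 to 0.63), *Ung* at 0.533 and 0.722 (0.44, 0.16 to 0.70) and *Hells* at 1.47 and 1.87 (0.35, 0.19 to 0.50). *Mcm6* was at 1.54 and 1.37 per 10000 (-0.16, -0.34 to 0.02).

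In the cells that were not replication-high by the other list positions, 19 of 40 members were at least 2-fold lower in the Taf4IEC library. No share of all genes was counted under that choice of cells. With the odd members selecting throughout, 10 of the 32 members with at least 200 UMIs in such cells were 2-fold lower, against 2.82% of all such genes. The median log2 ratio over all such genes was 0.14. *Rad51ap1* was lowest, at 0.0472 and 0.0118 UMIs per 10000 (-2.00, -2.67 to -1.39), followed by *Cdc45*, at 0.0322 and 0.00818 (-1.98, -2.79 to -1.24), and *Dscc1*, at 0.0297 and 0.00818 (-1.86, -2.68 to -1.12). *Rrm2*, at 0.0885 and 0.0859 (-0.04, -0.32 to 0.23), *Ccne2*, at 0.0126 and 0.0127 (0.01, -0.75 to 0.77), and *Ubr7*, at 0.0937 and 0.101 (0.11, -0.16 to 0.37), stood at like levels. The contrast between replication-high and other cells was wider in the Taf4IEC library. Its median log2 ratio over the members was 3.59 there against 2.47 in the control. A common cut in part fixes the level of the high cells, so this contrast is not separate from the lower level of the others. The other cells also pool classes of unlike shares in the libraries. With the odd members selecting, the even members in them had a log2 ratio of -0.81. It was -0.19 in stem-marker, -0.37 in enterocyte-marker, -0.575 in Paneth/goblet-marker, -0.69 in enteroendocrine-marker and -0.76 in cells of no class.

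The members also differed in how far they persisted into cells with mitotic transcripts. Cells were called mitosis-high when 18 mitosis genes (*Mki67*, *Top2a*, *Ccnb1*, *Plk1* and others) reached 2 times their mean level. Cells that were replication-high alone by the odd members numbered 317 in the control and 71 in the Taf4IEC library, those that were mitosis-high alone 260 and 59, and those that were both 167 and 30. By the even members these numbers were 292 and 74, 238 and 61, and 189 and 28. Each gene was read in the cells that the other list positions had chosen. Genes at odd and at even positions were therefore read in different sets of cells, which limits their ranking against each other. Between mitosis-high and replication-high cells of the same library, the median log2 ratio of the members was -1.59 in the control and -2.02 in the Taf4IEC library. The choice of the cells in part fixes this direction, so the values serve only to describe how the members differ from each other.

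**Figure D5:**
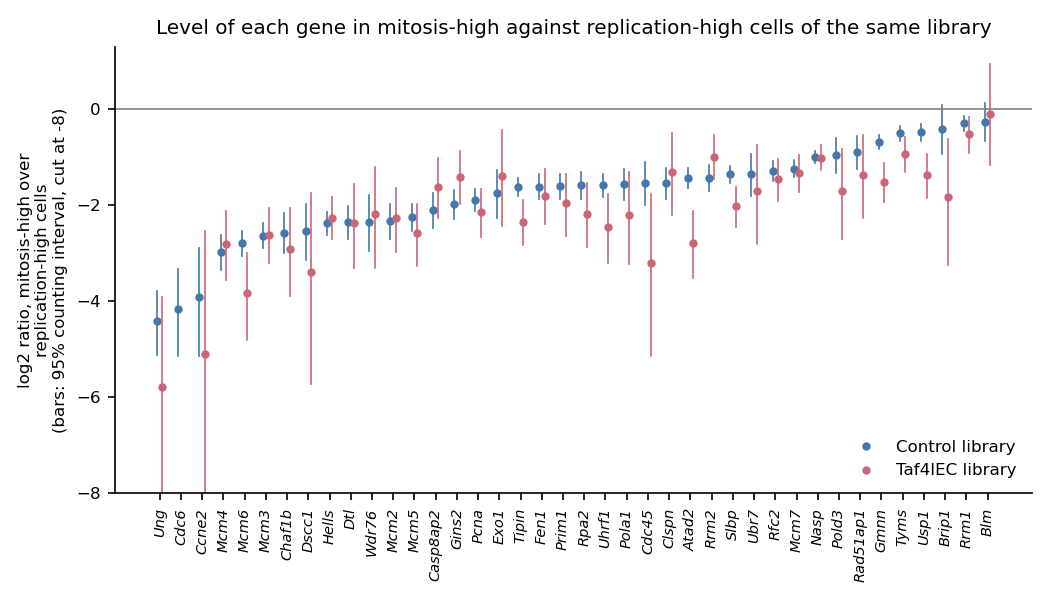
Log2 ratio of the level in mitosis-high over replication-high cells of the same library for each of the 40 genes, ordered by the control (blue), with the Taf4IEC library in red and 95% counting intervals as bars. Each gene was read in cells that the other list positions had chosen. *Ung*, *Cdc6* and *Ccne2* are lowest in the control, at -4.42, -4.16 and -3.91, and *Blm* is highest in both libraries, at -0.27 and -0.09.

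*Ung*, *Cdc6* and *Ccne2*, of which the last 2 act at the G1 to S transition, were the most confined to replication-high cells in the control. *Ung* stood at 0.799 UMIs per 10000 in replication-high and 0.0374 in mitosis-high cells of the control (-4.42, -5.12 to -3.79), and at 0.939 and 0.0171 in those of the Taf4IEC library. *Cdc6* stood at 0.382 and 0.0214 in the control, and had no UMI in the 59 mitosis-high cells of the Taf4IEC library against 0.395 in its replication-high cells. A count of 0 in those 59 cells allows up to 3 UMIs, a level above 0.0214, so this 0 does not place *Cdc6* below the control. *Ccne2* stood at 0.242 and 0.0161 in the control (-3.91, -5.15 to -2.89). Of the Mcm genes, *Mcm4*, read in cells chosen by the even members, was the most confined in the control, at 1.11 and 0.141 (-2.98, -3.36 to -2.62). *Mcm7*, read in cells chosen by the odd members, was the least, at 1.47 and 0.622 (-1.24, -1.42 to -1.06). In the Taf4IEC library the lowest Mcm ratio was that of *Mcm6*, at 1.44 and 0.101 (-3.83, -4.80 to -3.00), against -2.79 (-3.06 to -2.53) in the control. At the other end, *Rrm1* stood at 1.12 and 0.912 (-0.29, -0.46 to -0.13) and *Blm* at 0.199 and 0.166 (-0.27, -0.66 to 0.13) in the control. *Gmnn*, whose protein is stable from S phase to mitosis, stood at 1.62 and 1.01 in the control (-0.67) and at 1.63 and 0.572 in the Taf4IEC library (-1.51).

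The mitosis genes were further apart between the libraries than the replication genes. Over all cells the 18 mitosis genes summed to 10.9 UMIs per 10000 in the control and 3.50 in the Taf4IEC library (-1.64, -1.67 to -1.61). *Cdkn1a*, which encodes the cell cycle inhibitor p21 and is a p53 target, was at 0.653 and 3.16 per 10000 in stem-marker cells (2.27, 2.17 to 2.38). Among stem-marker cells with at least 10000 UMIs, those with under 1 UMI of *Cdkn1a* per 10000 numbered 752 in the control and 53 in the Taf4IEC library, and the replication genes summed to 21.2 (20.9 to 21.4) and 22.8 per 10000 (22.1 to 23.6) in them. In those with 1 to under 4 they summed to 21.7 in 191 control and 15.1 in 67 Taf4IEC cells, and in those with 4 or more to 16.1 in 45 Taf4IEC cells. Only 16 control cells fell in that last range, with a sum of 12.7. The mitosis genes stood at 13.1 and 6.61 per 10000 in the cells lowest in *Cdkn1a*. The part of *Cdkn1a* in these levels was not tested.

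Depth moved with the gap. In cells of 2000 to under 5000 UMIs the replication genes summed to 9.89 per 10000 in 131 control and 13.0 in 163 Taf4IEC cells, a log2 ratio of 0.40 (0.22 to 0.58), and in cells of 5000 to under 10000 UMIs to 7.66 and 8.20 (0.10, -0.07 to 0.27). In cells of 10000 to under 20000 UMIs they summed to 9.95 in 910 and 5.55 in 100 cells (-0.84, -0.94 to -0.74), and in cells of 20000 to under 40000 UMIs to 19.4 in 915 and 8.48 in 385 cells (-1.20, -1.23 to -1.17). From 40000 UMIs there were 203 Taf4IEC cells but only 3 control cells, with sums of 5.75 and 7.12 (-0.31, -0.61 to 0.01). No control cell had more than 4999 genes, whereas Taf4IEC cells had up to 5997. The lower level of the Taf4IEC library was thus found in cells of 10000 to under 40000 UMIs, and the direction was the opposite in the shallower cells of 2000 to under 5000 UMIs. The part of depth in these levels was not tested.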

How the data were processed

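Single-cell RNA-seq (10x Genomics, 3' end) of 1 control and 1 Taf4IEC library was analysed. Raw UMI counts were deposited. The authors made them with Cell Ranger 3.1 against mm10, after bcl2fastq 2.17.1.14. Their limits for Seurat 3.1.4, of 200 to 6000 genes per cell and 15% of mitochondrial UMIs, are met by every cell. The highest number of genes in a cell was 4999 in the control and 5997 in the Taf4IEC library. The 2 libraries may therefore not have shared an upper limit, and the part of this in the levels was not tested. Levels, ratios and intervals were computed with Python 3.11.15, numpy 2.4.6 and scipy 1.17.1: exact Poisson intervals for levels, exact conditional binomial intervals for ratios, Clopper-Pearson intervals for shares and square-and-add intervals (Newcombe) for their differences, all at 95%. A background of genes with at least 200 UMIs over the cells compared was used, with counts of 0 set to 3 UMIs over the cells. The interval and call steps were run on simulated Poisson counts of whole libraries. No variation between cells and no choice of cells was simulated, so this run checks the computing only. Cells were classed by lists of 14 stem, 12 enterocyte, 16 Paneth and goblet, 14 enteroendocrine and 8 tuft markers. The cut of 1 times the mean level, the minimum of 3 markers and the bins of *Cdkn1a* and of depth were set after the distributions had been seen. No doublet caller was run, and the deepest 5% of cells were left out as an alternative. The named genes are all 40 members, with full statistics for the 6 Mcm genes and for the lowest and highest ratio of each role group, the 3 lowest and 3 highest of 56 other replication genes, *Taf4*, *Cdkn1a* and the markers; members named within a class or state for their extreme or contrasting values were picked after those were seen. The members and all lists were chosen with earlier results of these data known. Promoter windows are those of RefSeq on GRCm38.p6, and 10 members were not matched there (*Mcm4*, *Gins2*, *Gmnn*, *Rfc2*, *Dscc1*, *Atad2*, *Exo1*, *Usp1*, *Tipin* and *Ccne2*).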

Additional observations from a re-analysis of the deposited data

How the results depend on the processing

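With 1 library per group no replicate could be left out, and counting intervals do not cover differences between cultures. No paired analysis was possible because there was 1 library per group. Over all cells, the summed log2 ratio of -1.04 and the median of -1.11 stayed negative under all 8 alternatives. Without mitochondrial, ribosomal protein, *Gm42418* and *AY036118* genes in the total they were -1.22 and -1.29, relative to the median ratio of all genes the sum was -1.20, in cells with at least 2000 UMIs -1.08, in cells with at least 1000 genes -1.08, and without the 6 Mcm genes -1.01. With every cell weighted equally they were -0.36 and -0.36, with 3 members in place of 28 at least 2-fold lower and 4 in place of 22 other replication genes. Without the deepest 5% of cells they were -0.88 and -0.93, with 16 members. In stem-marker cells the summed ratio of -0.24 became -0.38 with the reduced total and -0.46 relative to the median of all genes, with a median of -0.41, -0.081 with equal weights and -0.37 with the lower gate cut, and 1 member, in place of 0, was 2-fold lower with the reduced total, relative to the median of all genes, without the deepest 5%, with either other gate cut and, in an alternative added after seeing the data, in cells with at least 10000 UMIs. The log2 ratio of stem-marker over enterocyte-marker cells, 2.78 in the control and 2.99 in the Taf4IEC library, was 2.68 and 2.83 with the lower cut and 3.02 and 3.09 with the higher cut, and in the control 2.65 with equal weights and 2.88 without the deepest 5%. The difference in replication-high cells of -11.9 points was -15.3 in cells with at least 5000 UMIs, -15.0 at a cut of 1.5 times and -6.07 at 3 times the mean. The level read in such cells, 0.09 on the log2 scale, was 0.032 at that highest cut. None of these results changed sign under the alternatives run. The cause of these shifts was not tested.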
